A study of Coryphaena hippurus with 21 samples.

Results

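The miR-26 family was followed in whole mahi-mahi (Coryphaena hippurus) larvae that had developed in seawater with or without Deepwater Horizon oil. Its members were all names of the deposited count tables with the family number miR-26, whatever their species prefix, letter or arm. They were 2 of 329 names, cgr-miR-26a and aca-miR-26-5p, and neither carries the prefix of mahi-mahi. The exposed groups were slick oil, with L at 0.5%, M at 1% and H at 2%, and source oil, where L was 0.125%, M 0.25% and H 0.5%. The control group had seawater without oil. Each of these 7 groups had 3 libraries, and all larvae were sampled at 48 hours post fertilization (hpf). The oil had been blended into seawater at high energy (a HEWAF) and was diluted for use. Embryos from spawns of wild-caught broodstock developed in it at 27 °C, in beakers whose water was not renewed. The titles of the source oil samples say mass, and they were taken as source oil because the protocols name no further oil. Pooled larvae gave the RNA. Whether libraries of 1 group stem from different beakers is not stated, so p-values measure the spread between these libraries, which may be technical.

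MicroRNAs are short RNAs that pair through their seed with messenger RNAs and lower their output. In vertebrates the miR-26 hairpins lie in introns of the CTDSP genes, which encode small phosphatases acting on RNA polymerase II. The family builds up as cells differentiate. In zebrafish miR-26b represses its own host ctdsp2 during neuronal differentiation, and in mammals miR-26 represses EZH2, the methyltransferase of a silencing histone mark.

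The libraries held 3157670 to 8736995 counts in the exposed groups. The 3 control libraries held 6105389 to 7897029 counts within single tables, which list different names, and 7442565 to 8539378 over the names of all 6 tables, after repeated lines of a name were reduced to the highest count. Families marking skeletal muscle (miR-133, miR-206), neural tissue (miR-9, miR-124), endothelium (miR-126) and epidermis (miR-203, miR-205) were above 0 in all 21 libraries, miR-144 of blood in 17, miR-1 of muscle in 15 and miR-122 of liver in 10. The blood family miR-451 was listed in none. On the first principal component of the 99 names counted in all 21 libraries (51.7% of the variance), 7 libraries stood apart at 4.91 to 9.76, against -5.12 to -2.01 for the other 14. These 7 were all of source H and source M and library L3 of source L. Libraries are called by their column in the tables, and since slick and source columns share letters, the oil is named each time.

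The names cgr-miR-26a and aca-miR-26-5p held almost the same count in most libraries. In slick L, cgr-miR-26a had 235451, 172954 and 198455 counts in libraries L4, L5 and L6. In the same libraries aca-miR-26-5p had 235688, 0 and 198223. Library slick L5 thus gave its reads to cgr-miR-26a alone. The slick M table listed cgr-miR-26a only, with 243754 counts in M4, 0 in M5 and 265765 in M6, so slick M5 had no listed miR-26 read. In that library 13 of 104 families stood at 0, and 10 of these had a median above 100 CPM (counts scaled to a common library size) over the other libraries. Zeros of this kind were found in all exposed libraries but the first of each table, so group means of slick M are given without M5.

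In slick H, cgr-miR-26a had 3670, 99095 and 88613 counts in libraries H4, H5 and H6. The name aca-miR-26-5p had 151713, 99234 and 88491 there. Only H4 split unevenly, this time in favour of aca-miR-26-5p. In source L, cgr-miR-26a had 272778, 213191 and 117708 counts in L1, L2 and L3, and aca-miR-26-5p had 2809, 213416 and 117847. In source M, cgr-miR-26a had 76828, 142521 and 113183 counts in M1, M3 and M5, against 76729, 0 and 113043 for aca-miR-26-5p. The names parted in source L1 and source M3 and ran together in the other 4 of these libraries. In source H, cgr-miR-26a had 151685, 158077 and 49031 counts in H1, H2 and H3, against 151570, 157897 and 49099 for aca-miR-26-5p. In control, cgr-miR-26a had 324047, 361643 and 283463 counts in C4, C5 and C6, against 323864, 361347 and 283391 for aca-miR-26-5p.

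Of the 16 libraries with both names above 0, 14 had counts that differed by 0.0254 to 0.14% of the higher, and in the other 2 (slick H4 and source L1) they differed by 97.6 and 99.0%. The source M table repeats cgr-miR-26a on 3 lines that differ in library M1 alone, with 76828, 1569 and 76801 counts. Adding counts this close makes a library with both names look higher than a library with 1. The family was therefore measured in 2 ways. The summed total, which the design had set, adds all names and counts once only those with equal counts in every library, which these names do not have. The once-counted total, chosen after the counts were seen, leaves out a count within 1% of a higher count of the same family in the same library, and was formed for every family.

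**Figure D1:**
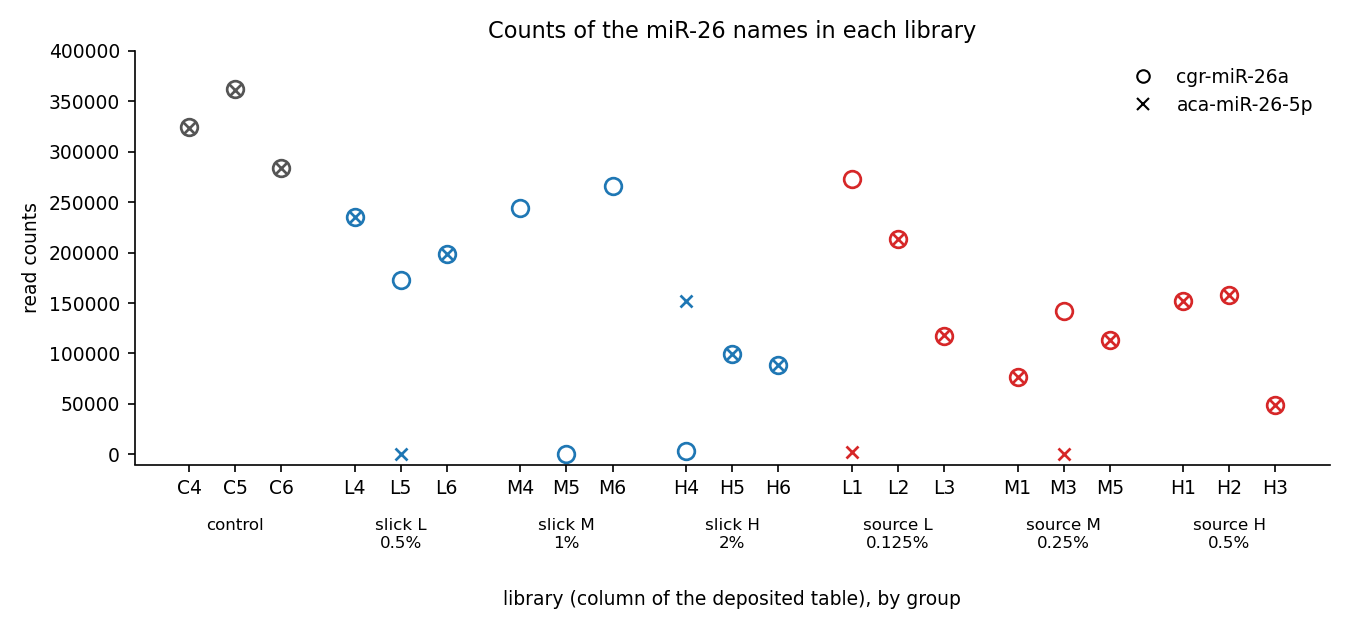
Read counts of cgr-miR-26a (circles) and aca-miR-26-5p (crosses) in each of the 21 libraries, in groups from control to the highest concentration of each oil. Circle and cross coincide in 14 libraries, part in slick L5, slick H4, source L1 and source M3, and slick M, where only cgr-miR-26a is listed, has a circle at 0 in M5.

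In once-counted CPM, oil-exposed larvae of slick L, slick H, source M and source H held about 48.0 to 51.2% of the control miR-26 level. As shares of counts, given below, these groups stood at 44.9 to 59.9% of control, and at 54.1 to 66.0% without miR-206 and miR-9. In these shares the control libraries rest on a longer list of names than the exposed libraries. The once-counted level is given in CPM, with library factors from the 99 names mentioned above, and a change can come from fewer cells that make miR-26 or from less of it per cell, which bulk larvae cannot tell apart. Levels were 33386, 25379 and 33706 CPM in slick L4, L5 and L6, and 25498, 29086 and 32019 CPM in slick H4, H5 and H6. They were 29972, 29516 and 32228 CPM in source M1, M3 and M5, and 32684, 29286 and 24748 CPM in source H1, H2 and H3. The control libraries C4, C5 and C6 stood at 63294, 64894 and 52269.7 CPM. None of these 12 exposed libraries reached the lowest control library. Such separation was common: as once-counted totals, 40.2% of all families tested did not overlap control in slick L, 37.4% in slick H, 49.5% in source M and 48.5% in source H.

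The remaining groups were mixed. Slick M stood at 52902 CPM in M4 and 38329.6 CPM in M6, so that M4 lay within the control range. Source L stood at 59424 CPM in L1, 64790.3 CPM in L2 and 28017 CPM in L3. Libraries L1 and L2 thus lay within the control range, and L3 lay among slick L, slick H, source M and source H. As scaled for the tests, in the table of source L alone, L2 stood at 49718 CPM, above the highest control library at 48387 CPM. On the first component L3 lay with source M and source H only. The other 14 libraries, which were control, all slick libraries and source L1 and L2, lay on its other side at -5.12 to -2.01. From the lowest, the group means were 28868 ± 3266 CPM in slick H, 28906 ± 3982 in source H, 30572 ± 1452 in source M and 30824 ± 4718 in slick L (SD, n = 3 each). Above them came 45616 ± 10304 CPM in slick M (SD, n = 2, without M5), 50744 ± 19864 in source L and 60153 ± 6874 in control (n = 3 each). The 4 lowest groups overlapped with their neighbours in this order, as did slick M with source L and source L with control. Between slick L and slick M the libraries did not overlap, with 1 library of slick M left out. The share of all families separated between these groups was not taken, so nothing is read from this gap.

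**Figure D2:**
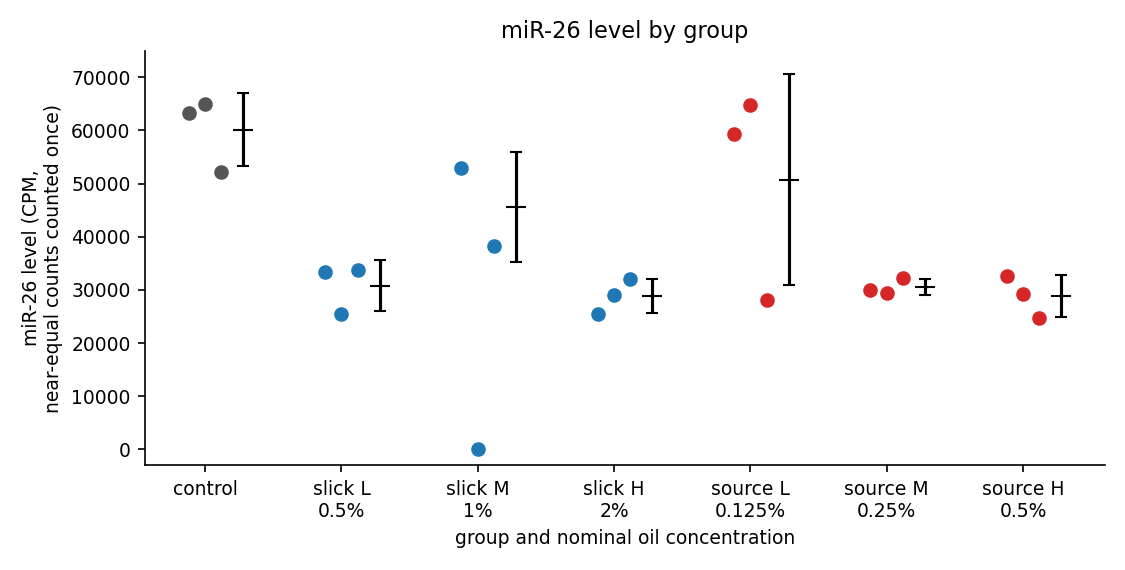
Once-counted miR-26 level (CPM) of each library by group and nominal concentration, with the mean and SD beside the points (slick M5, at 0, is drawn but not in the mean). Slick L, slick H, source M and source H lie at 24748 to 33706 CPM, below all 3 control libraries at 52269.7 to 64894 CPM (37.4 to 49.5% of all families were likewise separated from control in these groups), and source L3 lies apart from source L1 and L2.

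In rank, miR-26 was among the most abundant families. It stood 4th to 8th of the families above 0 in the 20 libraries where it was listed above 0, and 5th in all 3 control libraries. For shares, near-equal counts of all families were taken once, in the family and in the library total. Control totals ran over the names of all tables, exposed totals over the table of that exposure alone. The listed counts of control libraries were 7442565 to 8539378 over all tables, against 6105389 to 7897029 within single tables. The longer list makes control shares of miR-26 smaller, and exposed shares higher as a percentage of control. On this basis miR-26 made up 2.03 ± 0.38% of counts in source H and 4.53 ± 0.60% in control (SD, n = 3 each). The share was 2.32 ± 0.86% in source M, 2.47 ± 0.41% in slick H, 2.71 ± 0.33% in slick L and 3.42 ± 1.38% in source L (n = 3 each). Slick M without M5 stood at 3.88 ± 0.40% (n = 2). Shares of the library also turn on miR-206, a muscle family. It took 36.7 to 46.4% of counts in source H and 24.1 to 51.7% in source M, against 17.9 to 25.2% in control. In source L it took 36.4% in L1, 38.8% in L2 and 43.2% in L3. Slick oil had 26.1 to 34.1% of miR-206 in slick L, 20.7 to 36.5% in slick H and 16.2 to 31.1% in slick M (M5 included). The neural family miR-9 took 15.1 to 19.7% in source H and 15.4 to 30.9% in source M, against 29.1 to 29.3% in control. It took 20.7 to 24.9% in source L, 22.5 to 26.1% in slick L, 23.3 to 27.6% in slick H and 27.1 to 36.2% in slick M (M5 included). Without miR-206 and miR-9, miR-26 made up 5.04 ± 0.60% of counts in source H and 6.14 ± 1.21% in source M, against 9.31 ± 0.51% in control. By the same measure slick H stood at 5.57 ± 1.46%, slick L at 5.89 ± 0.88% and source L at 9.05 ± 3.14% (SD, n = 3 each). Slick M without M5 stood at 7.89 ± 1.23% (n = 2).

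Each exposure was tested against control in its own table with edgeR's quasi-likelihood test, on family totals of all families. The Benjamini-Hochberg adjustment ran over every family tested, and calls needed an adjusted p under 0.05. The planned summed total was called lower in source M and source H, and the once-counted total also in slick L and slick H. The median once-counted fold change of all families was 0.07 in slick L, 0.02 in slick H, 0.27 in source M and 0.20 in source H. The 6 comparisons share the 3 control libraries and are not independent of each other. Log2 fold changes are exposed over control, with an approximate standard error (SE).

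At the lowest slick dose miR-26 fell in the once-counted total, with a log2 fold change of -0.91 ± 0.15 SE (adjusted p = 0.0176, n = 3 against 3, edgeR), where 18.6% of families were called. The summed total stood at -1.18 ± 0.39 and was not called (adjusted p = 0.122), where 18.6% were called as well. Slick L5, whose reads carried 1 name, had 172954 summed counts, against 471139 and 396678 in slick L4 and L6. The single name cgr-miR-26a fell by 0.83 on the log2 scale (adjusted p = 0.0452), with 14.5% of names called. Its call did not hold with 1 library fewer, whichever of the 6 was left out (adjusted p = 0.0547 without L4, 0.0576 without L5, 0.0979 without L6, 0.0617 without C4, 0.0617 without C5 and 0.103 without C6), or with no filter on low counts (0.0547). The name aca-miR-26-5p, at 0 in L5, stood at -1.30 ± 2.75 and was not called (adjusted p = 0.901), nor was it without L5 (-0.71 ± 0.13, adjusted p = 0.0576). The once-counted call did not hold without slick L5 (adjusted p = 0.0555), slick L6 (0.0610), C4 (0.0868), C5 (0.0634) or C6 (0.0698), while the fold change stayed between -0.98 and -0.77.

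At the middle slick dose miR-26 was not called. The once-counted total stood at -1.02 ± 2.61 (adjusted p = 0.974) and the summed total at -0.89 ± 2.62 (adjusted p = 0.989) with the 0 of slick M5 included, where 0.99% of families were called in either form. Without slick M5 the once-counted total was -0.29 ± 0.19 (adjusted p = 0.521) and the summed total -0.44 ± 0.15 (adjusted p = 0.215). For the name cgr-miR-26a the fold change was -0.91 ± 2.75 (adjusted p = 0.988), with 1.26% of names called, and without slick M5 it was -0.34 ± 0.20 (adjusted p = 0.470). With control totals taken over the names of all tables, which adds aca-miR-26-5p to control only, the summed value was -1.90 ± 2.69 (adjusted p = 0.995).

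At the highest slick dose the once-counted total fell by 0.99 on the log2 scale (SE 0.18, adjusted p = 0.0307), where 9.09% of families were called. The summed total, at -1.25 ± 0.48, was not called (adjusted p = 0.179; 6.06% of families called), and without slick H4, which held 1 name almost alone, it was -0.87 ± 0.14 and was called (adjusted p = 0.0328). Of the single names, aca-miR-26-5p fell by 0.90 on the log2 scale (adjusted p = 0.0427), a call that did not hold without slick H5 (0.0875), slick H6 (0.0659), C4 (0.0946), C5 (0.127) or C6 (0.131). The name cgr-miR-26a, with its 3670 counts in H4, stood at -1.37 ± 1.28 (adjusted p = 0.686), and 10.1% of names were called. Without slick H4 it was -0.86 ± 0.14 and was called (adjusted p = 0.0342). The once-counted call did not hold without C4 (adjusted p = 0.104), C5 (0.0756) or C6 (0.109), with fold changes of -1.11 to -0.87 over the 6 libraries left out in turn.

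At the lowest source dose miR-26 was not called, with -0.23 ± 0.32 for the once-counted total (adjusted p = 0.825) and -0.60 ± 0.34 for the summed total (adjusted p = 0.459). No family was called in either form (0%), while 10 once-counted and 12 summed families had an unadjusted p under 0.05. No name was called either (0%), with 24 at an unadjusted p under 0.05. The names stood at -0.25 ± 0.33 for cgr-miR-26a (adjusted p = 0.875) and -0.97 ± 1.36 for aca-miR-26-5p (adjusted p = 0.903). Without library L3 the once-counted total turned to 0.034 ± 0.14 (adjusted p = 0.993). The summed total was -0.30 without source L1 (adjusted p = 0.681) and -1.03 without source L2 (adjusted p = 0.184), and aca-miR-26-5p was -0.35 without L1 (adjusted p = 0.675) and -2.04 without L2 (adjusted p = 0.738).

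At the middle source dose miR-26 fell in both forms. The once-counted total had a log2 fold change of -1.02 ± 0.12 (adjusted p = 0.00475), where 37.6% of families were called, and the summed total had -1.34 ± 0.32 (adjusted p = 0.0296; 28.7% of families called). The name cgr-miR-26a fell by 0.95 on the log2 scale (adjusted p = 0.0116), with 24% of names called, and aca-miR-26-5p, at 0 in source M3, stood at -1.50 ± 2.67 (adjusted p = 0.781). Without source M3 it was -0.92 ± 0.17 and was called (adjusted p = 0.0438). The once-counted call did not hold with total counts as scaling (-1.20 ± 0.32, adjusted p = 0.0701), without source M1 (adjusted p = 0.0578) or without C4 (0.0608). The summed call did not hold without source M1 (0.0678), C4 (0.108), C5 (0.103) or C6 (0.0947). Neither did it hold with total counts as scaling (-1.41, 0.105) or with other families as single names (-1.20, 0.0566). The call of cgr-miR-26a did not hold without C4 (0.0526) or C6 (0.0653), nor with total counts as scaling (-1.16, 0.118). All 3 source M libraries belonged to the 7 that stood apart, and the part of that difference in the fall of miR-26 was not tested. With miR-206 and miR-9 left out of the scaling, the once-counted fold change was -1.08 ± 0.21 (adjusted p = 0.0225). The summed total lost its call in that setting (-1.29 ± 0.38, adjusted p = 0.0537).

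At the highest source dose miR-26 fell in both forms as well. The once-counted total had -0.94 ± 0.20 (adjusted p = 0.0295) and the summed total -1.01 ± 0.16 (adjusted p = 0.0195), and 24.2% of families were called in either form. The single names stood at -0.87 ± 0.19 each and were not called (adjusted p = 0.0523), where 9.38% of names were called. Among names counted in every library they passed (-0.78 for cgr-miR-26a and -0.77 for aca-miR-26-5p, adjusted p = 0.0143 each). They also passed with total counts as scaling (-1.29 each, adjusted p = 0.0255), without source H1 (-1.01 each, adjusted p = 0.0386) and without source H3 (-0.85 each, adjusted p = 0.0426). The 9.38% belongs to the main setting, and for these other settings the share of names called is not given here. The once-counted call did not hold without source H2 (adjusted p = 0.152), source H3 (0.0660), C4 (0.0688), C5 (0.115) or C6 (0.124), nor with the other families kept as single names (0.0608). The summed call did not hold without source H2 (0.0667), C5 (0.0687) or C6 (0.0792), nor with other families as single names (0.0534). These 3 libraries also belonged to the 7 that stood apart, and the part of that difference in the fall was not tested. Without miR-206 and miR-9 in the scaling the once-counted fold change was -0.83 ± 0.20 (adjusted p = 0.0434).

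The authors' deposited table of comparisons gives log2 fold changes of -0.82 for cgr-miR-26a in slick L (adjusted p = 5.56e-11), and of -0.90 for aca-miR-26-5p (3.73e-11) and -0.73 for cgr-miR-26a (0.680) in slick H. For source L the authors' deposited table has -0.18 for cgr-miR-26a (adjusted p = 0.908) and -0.46 for aca-miR-26-5p (0.814). For source M it has -0.99 for cgr-miR-26a (authors' deposited table, adjusted p = 1.42e-17), and for source H -0.99 for both names (9.76e-08 for aca-miR-26-5p and 1.06e-07 for cgr-miR-26a). It lists neither name for slick M. At the authors' adjusted p under 0.05, 44 of 103 listed names passed in slick L and 39 of 97 in slick H. In source L 24 of 171 passed, in source M 58 of 114 and in source H 58 of 111. Some of the authors' fold changes are smaller in size than their group means give, so the measures are unlike. The means were 96486 (exposed) and 256111 (control) for cgr-miR-26a in slick H. For aca-miR-26-5p in source L they were 138323 and 263792.

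The slope on nominal concentration asked whether miR-26 follows the dose. For source oil, over 12 libraries, the once-counted total changed by -2.11 ± 0.66 log2 units per 1% of oil and was not called (adjusted p = 0.0708; 6.8% of families called), nor was the summed total at -1.58 ± 0.67 (adjusted p = 0.147; 5.83% called). Without source L3 the once-counted slope was -2.25 ± 0.61 and was called (adjusted p = 0.0298). Among the libraries left in that fit, those apart on the first component are all of source M and source H and no others. Dose and that difference cannot be told apart there. For slick oil the once-counted slope was -0.39 ± 0.80 (adjusted p = 0.916; 5.77% called) and the summed slope -0.55 ± 0.80 (adjusted p = 0.884; 3.85% called). Without slick M5 they were -0.36 ± 0.13 (adjusted p = 0.153) and -0.49 ± 0.22 (adjusted p = 0.234). By once-counted level, the slick groups did not follow the order of dose, with slick M (without M5) above both slick L and slick H. The summed slick slope sets slick M, where only cgr-miR-26a is listed, against groups with both names listed. There slick M4 and M6 stood at 38472 and 34138 CPM, above slick L5 and H4 and below the other libraries of slick L and slick H.

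Between the oils, source over slick, miR-26 was not called in any of 4 comparisons. At the shared nominal 0.5%, source H against slick L gave -0.09 ± 0.16 for the once-counted total (adjusted p = 0.751; 13.5% of families called) and 0.11 ± 0.38 for the summed total (adjusted p = 0.849; 4.81% called). Source H against slick H gave -0.23 ± 0.27 (adjusted p = 0.618; 10.9% called) and, summed, 0.22 ± 0.48 (adjusted p = 0.798; 12.9% called). Source L against slick L gave 0.75 ± 0.28 (adjusted p = 0.345) and, summed, 0.74 ± 0.50 (adjusted p = 0.576), with no family called in either form (0%) and 13 families at an unadjusted p under 0.05. The summed value was 0.22 without source L2 (adjusted p = 0.929), 0.39 without slick L5 (adjusted p = 0.984) and 0.30 with total counts as scaling (adjusted p = 0.829). Source M against slick M gave 0.19 ± 2.58 (adjusted p = 0.964; 4.08% called) and, summed, 0.86 ± 2.62 (adjusted p = 0.891; 0% called, with 25 families at an unadjusted p under 0.05). Without slick M5 these last values were -0.50 ± 0.20 (adjusted p = 0.213) and 0.13 ± 0.39 (adjusted p = 0.902). Both summed values add aca-miR-26-5p to source M only, since slick M lists cgr-miR-26a alone, so they do not set like against like. In the last 3 comparisons the nominal concentrations were unequal, and a missed threshold does not show that the oils acted alike.

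**Figure D3:**
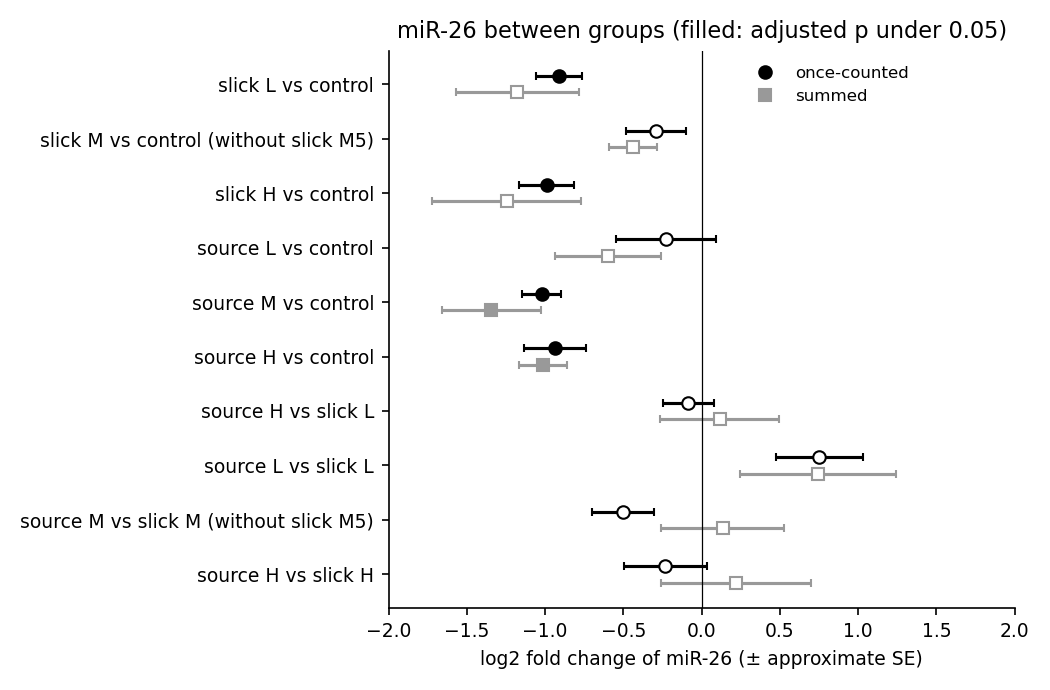
Log2 fold changes of miR-26 with their approximate SE, each named group over the group it is set against, as once-counted totals (black circles) and summed totals (grey squares), filled where the adjusted p was under 0.05. Once-counted values lie at -1.02 to -0.91 for slick L, slick H, source M and source H against control, and comparisons with slick M are drawn without slick M5. For source M over slick M, the summed value adds aca-miR-26-5p to source M only.

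Among 75 families above 0 in all 21 libraries, those whose level ran most like miR-26 over the 20 libraries with miR-26 above 0 were miR-301, miR-499 and miR-18. Their Pearson r of log2 CPM was 0.79, 0.75 and 0.73 (Spearman's rho 0.78, 0.78 and 0.56), given as a description, since the libraries share groups and scaling. Control totals of these families ran over the names of all tables, exposed totals over the table of that exposure alone. Their levels and r can therefore mix differences in listed names with differences in level. The family miR-301 averaged 4296 ± 587 CPM in control, 1770 ± 618 in source H and 1220 ± 197 in source M (SD, n = 3 each). In slick H and slick L it averaged 1797 ± 171 and 2424 ± 465 CPM. It lay close to its slick L mean in slick M (2481 ± 690, M5 included) and source L (2464 ± 989). The miR-26 means of slick M (without M5) and source L were higher than that of slick L. The myosin-gene family miR-499 followed miR-26 closely within the 11 control and slick libraries (r = 0.95) and less so within the 9 source libraries (r = 0.51). The reverse held for miR-18, a member of the miR-17 clusters, (0.54 and 0.92). Source L1 and L2, the source libraries highest in miR-26, had 12256 and 16103 CPM of miR-18. All other source libraries had 6124 to 8458 CPM, so the r within source oil rests largely on L1 and L2. In the opposite direction stood miR-734 (r = -0.84), miR-34 (-0.73) and miR-93 (-0.71). The family miR-34 was scarce, at 26.9 ± 10.8 CPM in control, 149 ± 84.9 in source M and 119 ± 96.0 in source H (SD, n = 3 each). Its highest levels were 187, 209 and 229 CPM, in source M1, source M3 and source H3. The fish miRNA miR-734 averaged 1550 ± 103 CPM in control, 3025 ± 677 in source H and 2901 ± 636 in source M. In slick H and slick L it averaged 3943 ± 412 and 2582 ± 353 CPM. Slick M (2504 ± 689, M5 included) and source L (2615 ± 1287) again lay close to slick L. With the 2 libraries farthest from the median of miR-26 left out, r was 0.73 for miR-301, 0.71 for miR-499, 0.62 for miR-18, -0.84 for miR-734, -0.73 for miR-34 and -0.67 for miR-93 (18 libraries).

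**Figure D4:**
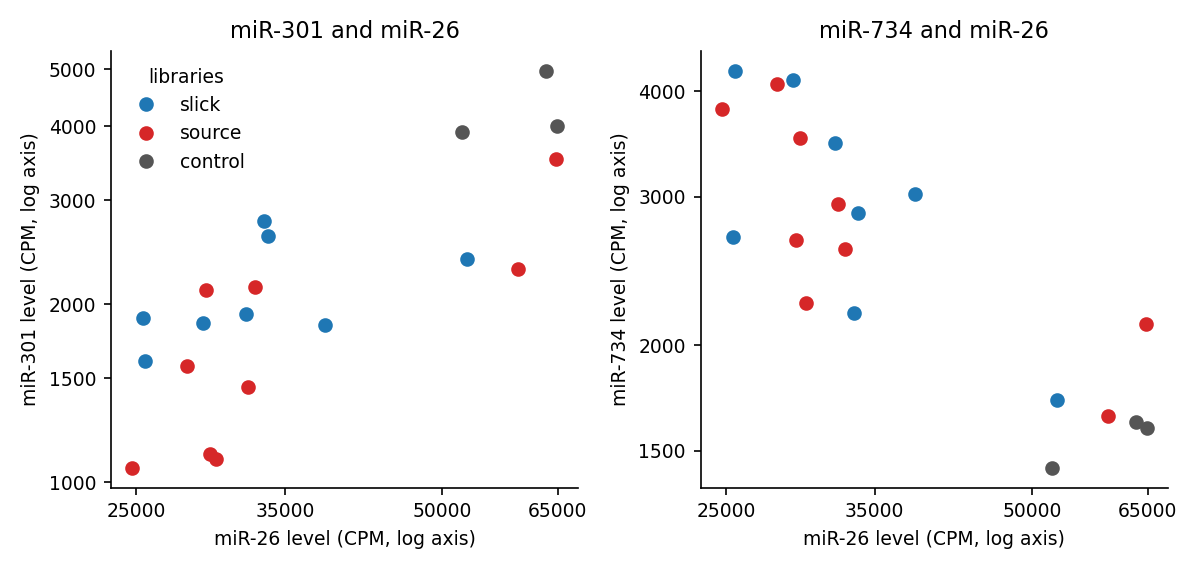
Level of miR-301 (left) and miR-734 (right) against the level of miR-26 in 20 libraries (CPM, log axes), coloured by slick, source and control. Libraries low in miR-26 are mostly low in miR-301 (r = 0.79) and high in miR-734 (r = -0.84), and the control libraries lie at the high end of miR-26.

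Other families known to repress EZH2 in mammals did not move as a block. Of 5 such families (miR-101, miR-138, miR-124, miR-214 and let-7), as once-counted totals, 1 fell in slick L, 1 rose in source M and 2 rose in source H, and in slick M, slick H and source L none passed. Beside 18.6% of all families called in slick L, 37.6% in source M and 24.2% in source H, these are 1, 1 and 2 of 5, and nothing particular to the list is read from them. The one that fell was miR-214 (-1.02 ± 0.17, adjusted p = 0.0185). Those that rose were miR-138 in source M (3.84 ± 0.65, adjusted p = 0.0109) and in source H (3.05 ± 0.46, adjusted p = 0.0164), and let-7 in source H (2.24 ± 0.39, adjusted p = 0.0214). The family miR-138 was scarce, at 35.5 ± 1.8 CPM in control (SD, n = 3). It was uneven in source M (512 ± 345 CPM) and source H (276 ± 158 CPM). Chosen after its values were seen, miR-101, at 170 ± 22.7 CPM in slick L and 394 ± 133 CPM in control (SD, n = 3 each), had a log2 fold change of -1.16 ± 0.29 in slick L and was not called (adjusted p = 0.0527). Chosen likewise, miR-124 ranged from -0.66 to 0.27 over the 6 exposures and was called in none.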

How the data were processed

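Small RNA libraries of pooled whole larvae were made with the NEBNext kit, per the labels. The authors deposited raw read counts per mature miRNA name, 1 table per exposure with the 3 controls; for the aligner, the counter and the genome, nothing is given in the sources used here. Result tables that the authors deposited hold a normalized signal (the mean scaled count of each group) with a log2 fold change and a p-value, raw and adjusted; DESeq2 is named in the submitters' processing notes.

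Columns were joined to groups, not to samples, because their numbers do not follow the titles. Repeated lines of a name (17 extra lines) were reduced to the highest count, and 6 blank control cells were filled from another table. Controls had the same counts in all tables (0 cells differed). Slopes took control totals over the names of the 3 tables involved.

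Tests used edgeR 4.0.16 (R 4.3.3) with TMM, filterByExpr (minimum count 10, total 15), glmQLFit and glmQLFTest, with Benjamini-Hochberg adjustment; the SE is the absolute log2 fold change over the root of F. The code was tested on simulated data. Every miR-26 name was described, with the 3 families of highest and the 3 of lowest Pearson r with miR-26, and the members of the EZH2-linked list that passed. Alternatives were DESeq2 1.42.0, other scalings, filters and row sets, other family totals, control totals over the names of all tables and leaving out each library. CPM levels used TMM factors over the 99 shared names. Family totals behind these levels ran over the names of all tables in control and over 1 table in each exposed library. For miR-26, counting error is small beside the spread between libraries at these depths. The members, lists, tests and the rule for naming families were chosen with earlier results of these data known.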

Additional observations from a re-analysis of the deposited data

How the results depend on the processing

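Log2 fold changes of miR-26 against control are given below as once-counted or summed totals. With near-equal counts all added, slick L stood at -1.13 and slick H at -1.23, neither called. DESeq2 called the summed totals of slick L (-1.18) and slick H (-1.30). For source M, the summed total lost its call with total counts as scaling (-1.41), with other families as single names (-1.20) and without miR-206 and miR-9 (-1.29), and the once-counted total with total counts (-1.20). For source H, calls were lost with other families as single names (-0.89 in both forms) and, once-counted, at a tolerance of 5% (-0.90). The once-counted source slope passed with DESeq2 (-2.12), total counts (-2.44), median-of-ratios factors (-2.12), no filter (-2.26), families above 0 in every library (-2.16), miR-206 and miR-9 left out (-2.16), tolerances of 0.5% (-2.06) and 5% (-1.98) and the highest name per family (-2.17).

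Between the oils, where nothing was called, signs turned for source H over slick L (summed, total counts, -0.21; once-counted, all added, 0.10), source M over slick M (once-counted, total counts, -0.16; highest name, -0.11) and source H over slick H (summed, total counts, -0.12; once-counted, single names, 0.042; all added, 0.19). Scaling by total counts moved the median of all once-counted families by -0.35 in source L, -0.17 in source M and -0.34 in source H; relative to the median, miR-26 in source H lay at -1.14 with TMM and -1.13 with total counts. The cause of these differences was not tested.

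Leaving out 1 library in turn, once-counted values for slick L ran from -0.98 to -0.77, for slick H from -1.11 to -0.87, for source L from -0.42 to 0.034, for source M from -1.08 to -0.93, for source H from -1.0 to -0.73 and for the source slope from -2.34 to -1.91. Summed values ran from -1.59 to -0.87 for slick H, from -1.03 to -0.30 for source L, from -1.59 to -1.08 for source M and from -1.10 to -0.94 for source H. The name cgr-miR-26a in source L ran from -0.41 to 0.049. For source L over slick L (summed) the range was 0.22 to 0.90, for source H over slick L (summed) -0.24 to 0.28, for source M over slick M (once-counted) -0.50 to 0.70, and for source H over slick H -0.16 to 0.45 summed and -0.35 to 0.0071 once-counted. As shares of all counts with near-equal ones taken once, miR-26 stood at 59.9% of control in slick L and 54.6% in slick H. These control shares ran over the names of all tables, the exposed shares over 1 table each. The total without 3p names equals the main total, since neither name is a 3p name. No fit over families above 0 in every library was possible for comparisons with slick M, since miR-26 is at 0 in slick M5. No paired analysis was possible because column numbers such as C4 to C6 cannot be matched to the replicates numbered in the titles.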

Other observations

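Near-equal counts were also found outside the miR-26 names, which were near-equal in 14 of the 16 libraries with both above 0. Over the 21 libraries, 413 of 2099 pairs of names of the same family, each with at least 10 counts, differed by at most 1% of the higher count (19.7%), and such pairs stood in 30 of 125 families. In the first exposed column of each table none of 104 families stood at 0, while 8 to 14 stood at 0 in every other exposed library and 0 to 3 in the control libraries.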
